A study of Mus musculus with 18 samples.

Results

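The glucocorticoid receptor system was followed through 8 genes, namely Nr3c1, Nr3c2, Hsd11b1, Fkbp5, Tsc22d3, Sgk1, Zbtb16 and Pdk4, in single-nucleus RNA sequencing libraries of 2 brain regions, hippocampus (Hip) and prefrontal cortex (PFC), from mice with and without gut microbiota. The 8 genes, of 30905 in the count tables, were selected by symbol for their place in this system. They were also chosen with earlier results of the same libraries known, the differences between germ-free and colonised mice included. The differences of GF mice from SPF and from CGF mice below, and the comparison of GF against SPF between the regions, are therefore a description of these genes. They support nothing about the set. For GF against SPF, values are given with the call of the fit over all genes and, for many but not all, with a standard error (SE). Nothing is read from how many of the 8 genes were called.

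Each library came from 1 brain region of 1 Kun Ming mouse, harvested at 8 weeks of age, with 3 mice in each of 3 groups and both regions taken from every mouse, which gave 18 libraries. Germ-free (GF) mice had no gut microbiota, were derived by sterile treatment of SPF mice and lived in flexible film gnotobiotic isolators. Specific pathogen free (SPF) mice carried a microbiota and were raised in other housing than the other two groups. Colonized GF (CGF) mice were born germ-free and shared an isolator with SPF mice from 4 weeks of age until harvest, so a CGF brain developed without microbiota up to that age. The sex of the mice and the time of day at harvest, on which the hormone's level is known to depend, are not given in the sources used here, nor is whether the sequenced mice had been through behavioural tests.

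Corticosterone, the main glucocorticoid of the mouse, follows a daily rhythm and rises with stress. It binds 2 nuclear receptors, the high-affinity mineralocorticoid receptor Nr3c2 and the lower-affinity glucocorticoid receptor Nr3c1, and Hsd11b1 regenerates it inside cells from its inactive keto form. The bound receptor enters the nucleus and drives target genes such as Fkbp5, whose product is a co-chaperone of Hsp90 that lowers the receptor's affinity for hormone and so closes a feedback loop. Hippocampal neurons are known for high levels of Nr3c2.

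The filter stated by the study was applied here to the 139924 deposited barcodes. It left 71398 Hip and 66602 PFC nuclei, fewer than the study plotted. Cell types were assigned by a gate on marker genes. A cell type name therefore means that a nucleus passed that gate. Of the 138000 nuclei, 8384 passed no gate, among them 3636 that lay between the gates of excitatory neurons and interneurons. Another 1383 passed 2 gates of non-neuronal types, the second score over 0.5 of the first, and were left out as possible doublets. Neuronal gates applied only to nuclei with no other gate, so possible doublets of a neuron with another type were kept as that type. Of the nuclei gated as non-neuronal types, 1284 lay at the marker minimum and were kept. In 4 of the 9 Hip libraries (GF mice 5 and 7, SPF mouse 30 and CGF mouse 18) the nuclei of the ependymal gate carried more excitatory neuron than ependymal markers, so ependymal cells are left out of the orders of types below. The summed level of each type's own markers was above 0 for every marker in each of the 7 types tested. Pairs of libraries shared between 6 and 29 cell barcodes, at most 0.362% of a library.

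Depth and quality differed between groups. In the PFC, the median number of unique molecular identifiers (UMIs) per nucleus was 6796 to 7427 for GF libraries, while SPF libraries had 3037 to 3208 and CGF libraries 2353 to 3036. Hip medians were 4678 to 5905 for GF, 6173 to 7087 for SPF, then 5460 to 7579 for CGF. The mitochondrial share of UMIs was 0.645% to 1.10% in GF Hip against 0.128% to 0.471% in SPF, and 0.359% to 0.594% in GF PFC against 1.66% to 3.22% in SPF. CGF libraries had 0.077% to 0.218% in Hip and 1.28% to 2.24% in the PFC, apart from GF in both regions. A difference of GF mice from SPF or CGF mice cannot be told apart from these library properties by the design.

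For each mouse, the UMIs of a type were added up, and levels are given as CPM, counts scaled to a total of 1000000 UMIs of that type in that library, adjusted by the trimmed mean of M-values where values per mouse are given for the 7 types and 3 subfields that were tested. Means in the orders of types, percentages of the excitatory neuron level, and all values of other types and subtypes are without that adjustment, so they differ somewhat from the values per mouse. Tests used edgeR's quasi-likelihood test with Benjamini-Hochberg adjustment over all genes tested in a type, and a gene was called at an adjusted p under 0.05. Of the 56 pairs of a gene and a type, 50 in Hip and 45 in the PFC passed the filter on low counts. In Hip the pairs left out were Pdk4 in interneurons, oligodendrocyte precursor cells (OPC), microglia and endothelial cells, and Hsd11b1 in microglia and endothelial cells. In the PFC they were Pdk4 in every type but astrocytes, Hsd11b1 in oligodendrocytes, OPC, microglia and endothelial cells, and Tsc22d3 in OPC.

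The sequences before 2 of the genes are shown because the receptor is known to act on such targets by binding DNA, and they differ in whether they hold the letters of its motif. RefSeq gives promoter windows, from 250 bases before to 50 bases after a transcript's start on GRCm38.p6, for 6 of the 8 genes, 13 windows in all, and none was at hand for Nr3c1 and Zbtb16. Windows were searched on both strands for the palindromic receptor motif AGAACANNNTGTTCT, which is read the same on either strand. It stood in 3 of 32851 windows of all genes, or 0.00913%, and 1 of the 3 was a window of Sgk1. The 250 bases before this Sgk1 start lie on the plus strand at chr10:21993640-21993889, and the motif, in capitals, begins 189 bases before the start at chr10:21993701-21993715. Those before the Fkbp5 start lie on the minus strand at chr17:28486150-28486399 and hold no match, so they carry no capitals. Each is written 5′ to 3′ along its gene.
Sgk1: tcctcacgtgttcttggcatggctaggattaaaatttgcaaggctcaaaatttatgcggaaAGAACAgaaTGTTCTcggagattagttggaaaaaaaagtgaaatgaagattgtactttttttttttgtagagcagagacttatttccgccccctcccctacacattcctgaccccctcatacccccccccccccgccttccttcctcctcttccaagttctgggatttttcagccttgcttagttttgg
Fkbp5: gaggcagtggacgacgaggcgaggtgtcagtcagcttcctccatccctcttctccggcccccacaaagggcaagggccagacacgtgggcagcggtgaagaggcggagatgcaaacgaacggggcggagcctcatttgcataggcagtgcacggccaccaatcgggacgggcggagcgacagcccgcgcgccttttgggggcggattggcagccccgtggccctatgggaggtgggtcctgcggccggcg
A single 6-base arm of the motif, AGAACA or TGTTCT, was in 4 of the 13 windows of these genes and in 6233 of the 32851 windows of all genes. A match is a string of letters and not a measured binding site, and its absence says only that these letters are not in this window.

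Nr3c1, the glucocorticoid receptor, was detected in every cell type. In SPF Hip the mean level ran from 354 CPM in endothelial cells and 309 CPM in border macrophages down to 62.6 CPM in interneurons. The levels of the first of these pairs overlapped between mice, as did those of oligodendrocytes (206 CPM), astrocytes (202 CPM) and microglia (190 CPM), while excitatory neurons stood at 102 CPM and interneurons lay below every other type. In SPF PFC the order was alike at its ends, with endothelial cells at 227 CPM and interneurons at 83.1 CPM. Within the hippocampal excitatory neurons of SPF mice, the scaled level was 136 CPM in CA1, 96.2 CPM in the granule cells of the dentate gyrus (DG) and 56.9 CPM in CA3, and the 3 mice of 1 subfield did not overlap those of another.

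In Hip, Nr3c1 was lower in GF than in SPF mice in neurons and in most other types. In excitatory neurons it was 66.1, 58.3 and 68.1 CPM in the 3 GF mice, 107, 109 and 97.2 CPM in the SPF mice, and 118, 106 and 103 CPM in the CGF mice. Every GF mouse lay below every SPF and CGF mouse, and SPF and CGF overlapped. The log2 fold change of GF against SPF was −0.70 (SE 0.08), a 1.63-fold lower level, and it was −0.87 (SE 0.07) in DG granule cells, −0.82 (SE 0.11) in CA1 and −0.72 (SE 0.13) in CA3. Interneurons (−0.48), oligodendrocytes (−0.73), astrocytes (−0.46) and endothelial cells (−0.84) were called too, whereas OPC (−0.26, adjusted p = 0.226) and microglia (−0.47, adjusted p = 0.0685) were not. Removing from each library the trends with gene length and GC content brought excitatory neurons to −0.42, still called, and ended the calls of interneurons (−0.21, adjusted p = 0.194) and astrocytes (−0.16, adjusted p = 0.358). The endothelial call ended under that alternative and without any single library other than that of SPF mouse 32, with adjusted p between 0.0528 and 0.15. For GF against CGF in Hip, removal of these trends kept 1 of 4 calls of Nr3c1, with values of −0.40 to −0.14.

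In the PFC, Nr3c1 passed no test of GF against SPF in any of the 7 types, with log2 fold changes from −0.22 to 0.50. In PFC excitatory neurons it was 96.6, 112 and 102 CPM in GF, 106, 116 and 115 CPM in SPF, and 92.4, 112 and 92.6 CPM in CGF mice, so all groups overlapped, and the 95% interval of the log2 fold change of GF against SPF was −0.31 to 0.07.

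Nr3c2, the mineralocorticoid receptor, stood at different places in the order of types of the 2 regions. In SPF Hip the mean was 1227 CPM in fibroblasts and 1140 CPM in excitatory neurons, which overlapped, then 653 CPM in mural cells, 563 CPM in astrocytes, 435 CPM in interneurons and 278 CPM in OPC at the low end. In SPF PFC, fibroblasts again led at 988 CPM, without overlap with endothelial cells at 304 CPM, while excitatory neurons stood at 96.7 CPM and oligodendrocytes at 86.1 CPM. Nr3c2 of excitatory neurons was therefore near the top of the order in Hip and near its lower end in the PFC. Among hippocampal subfields in SPF mice, DG granule cells held 1510, 1787 and 1631 CPM, all above CA1 with 974, 1144 and 994 CPM and CA3 with 867, 1122 and 1092 CPM, and CA1 and CA3 overlapped.

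The contrast of the regions was tested in 1 fit of all 18 libraries. Nr3c2 in excitatory neurons was 13.7-fold higher in Hip than in the PFC of SPF mice (log2 fold change 3.77, SE 0.17, adjusted p = 7.52e-12), 11.0-fold higher in CGF mice (3.46, SE 0.17, adjusted p = 1.54e-11) and 4.84-fold higher in GF mice (2.27, SE 0.16, adjusted p = 1.33e-08). It was also higher in Hip interneurons of SPF (1.05) and CGF mice (1.16), and in GF interneurons the value was 0.30 (adjusted p = 0.164). SPF and CGF libraries were less deep in the PFC than in Hip, as given above, and GF libraries were deeper there. The part of depth in these values was not tested beyond thinning all libraries to a common depth, which ended none of the calls named in this paragraph.

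In Hip, Nr3c2 was lower in GF mice. Excitatory neurons held 716, 505 and 567 CPM in GF, 988, 1347 and 1173 CPM in SPF, and 1149, 918 and 1145 CPM in CGF mice, from 77490, 146343 and 127060 UMIs in the groups. The GF values lay below all others, and SPF and CGF overlapped. The log2 fold change of GF against SPF was −0.97 (SE 0.15), a 1.96-fold lower level, and DG granule cells, CA1 and CA3 gave −0.93, −0.95 and −0.94. Some markers of other types in Hip excitatory neurons differed between GF and SPF mice without overlap, with interneuron markers at 77.9 to 90.0 against 121.3 to 186.8 CPM, oligodendrocyte markers at 272.0 to 294.8 against 315 to 460 CPM, OPC markers at 579 to 671 against 736 to 842 CPM and microglial markers at 90.7 to 106.1 against 66.8 to 78.8 CPM, and their part in the values of Nr3c1, Nr3c2 and Sgk1 was not tested. Interneurons (−0.72), oligodendrocytes (−0.97), astrocytes (−0.91) and OPC (−0.51) were called as well, and microglia (−0.61, adjusted p = 0.0725) and endothelial cells (−0.61, adjusted p = 0.164) were not. In Hip interneurons, OPC markers were lower (659 to 841 against 918 to 1019 CPM) and microglial markers higher (95.1 to 100.2 against 73.7 to 76.5 CPM) in GF than in SPF mice, without overlap. Their part in any result on Hip interneurons was not tested. With the length and GC trend removed, excitatory neurons gave −0.62, interneurons −0.36, oligodendrocytes −0.63 and astrocytes −0.51, all still called, and OPC gave −0.21 (adjusted p = 0.458). The OPC call also ended with DESeq2, without the scaling factors, and without the library of GF mouse 6 or 7 or of SPF mouse 31 or 32 (−0.49 to −0.40, adjusted p 0.0892 to 0.153). For GF against CGF in Hip, removal of the length and GC trend kept 1 of 6 calls of Nr3c2, with values of −0.50 to −0.24.

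Neuronal markers were counted in Hip glia beside Nr3c2. In SPF mice it was 27.03% of the excitatory neuron level in oligodendrocytes, 24.4% in OPC, 49.4% in astrocytes and 42.0% in microglia, and the summed level of the 9 excitatory neuron markers was 40.9%, 42.2%, 37.8% and 58.6% of theirs in the same types. In Hip glia this summed excitatory marker level overlapped between GF and SPF mice in every type. The interneuron markers were lower in GF mice without overlap in Hip OPC (4172 to 4504 against 5028 to 5845 CPM) and microglia (412 to 807 against 813 to 994 CPM). The part of free neuronal RNA and of possible doublets with neurons in the glial values of Nr3c2 was not tested.

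In the PFC, Nr3c2 rose in GF excitatory neurons and fell in endothelial cells. In excitatory neurons it was 125, 132 and 135 CPM in GF, 83.8, 95.3 and 104 CPM in SPF, and 123, 116 and 81.1 CPM in CGF mice, with GF above SPF without overlap and CGF overlapping SPF. The log2 fold change was 0.47 (SE 0.14). In endothelial cells it was 195, 216 and 177 CPM in GF, 369, 307 and 309 CPM in SPF, and 167, 203 and 233 CPM in CGF mice, so that here both GF and CGF lay below SPF. GF against SPF gave −0.75 (SE 0.19), which ended when libraries were thinned to a common depth (−0.53, adjusted p = 0.0711), and CGF against SPF gave −0.69 (SE 0.21) with an unadjusted p under 0.05 but an adjusted p of 0.249.

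**Figure D1:**
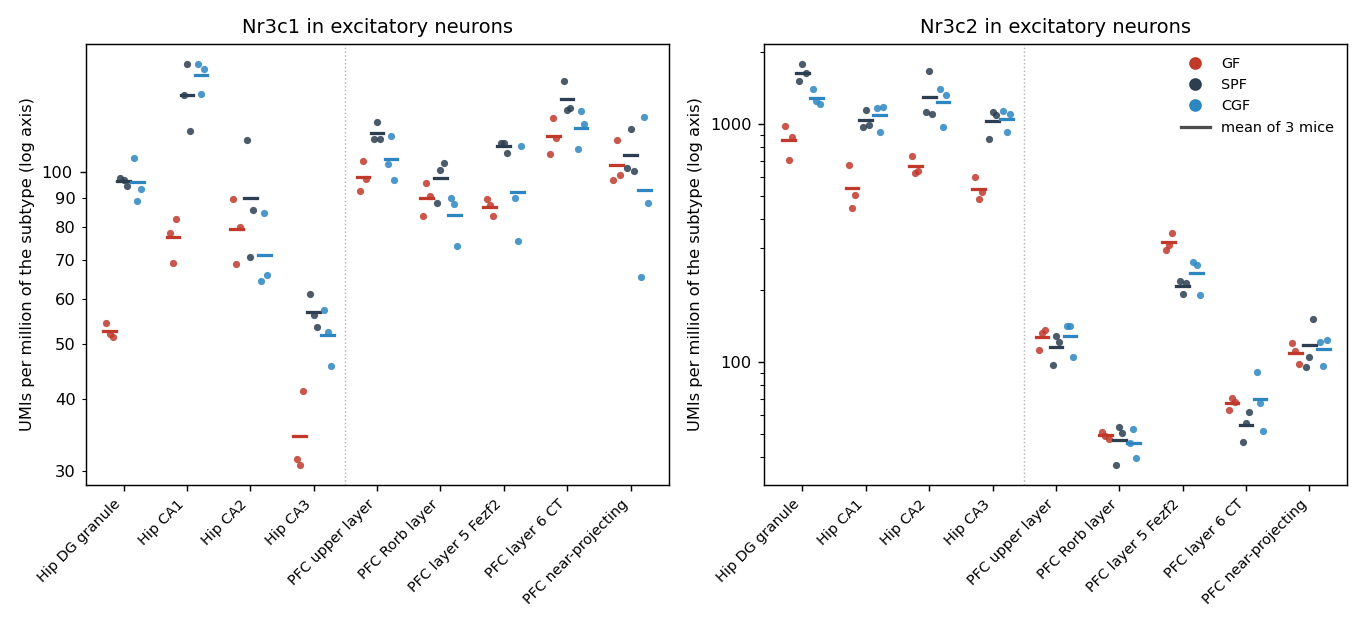
Levels of Nr3c1 (left) and Nr3c2 (right) in excitatory neurons of hippocampal subfields and PFC layers, in CPM on a log axis, with a point for each mouse and a line for the mean of the 3 mice of a group. Nr3c2 of GF mice lies below that of SPF mice in DG granule cells, CA1, CA2 and CA3, and Nr3c1 does so in DG granule cells, CA1 and CA3.

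Hsd11b1, which regenerates active corticosterone, was highest in astrocytes. In SPF Hip, astrocytes held 57.9 CPM and oligodendrocytes, next in order and without overlap, 18.3 CPM, whereas excitatory neurons held 5.88 CPM. In SPF PFC, astrocytes held 17.6 CPM and overlapped with fibroblasts and mural cells, each with 2 UMIs in all. The gene was higher in Hip than in the PFC in astrocytes of every group, with log2 fold changes of 1.48 for GF, 1.76 for SPF and 2.13 for CGF mice (adjusted p = 1.74e-05, 1.5e-05 and 7.52e-07), and in excitatory neurons, with 1.08, 1.74 and 1.95 (adjusted p = 0.000874, 5.47e-06 and 1.35e-06).

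Against SPF, Hsd11b1 of GF Hip astrocytes was 73.9, 71.3 and 103 CPM against 57.2, 69.9 and 45.1 CPM, without overlap and by little, since 71.3 and 69.9 CPM stood next to each other. The log2 fold change was 0.54 (SE 0.19, adjusted p = 0.0384). This call rested on single mice, for it ended without GF mouse 7 (0.32, adjusted p = 0.266), SPF mouse 30 (0.53, adjusted p = 0.0968) or SPF mouse 32 (0.36, adjusted p = 0.169), and with DESeq2. PFC astrocytes gave 0.78 (SE 0.30, adjusted p = 0.0363), ended without GF mouse 5, 6 or 7 or SPF mouse 31 or 32 (0.64 to 0.81, adjusted p 0.0587 to 0.143) and with the length and GC trend removed (0.46, adjusted p = 0.222). No other type of either region was called for this gene.

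Fkbp5, the co-chaperone and feedback gene, showed its widest range between groups outside neurons. In SPF Hip the order of the types ran from fibroblasts (211 CPM) and microglia (196 CPM) through excitatory neurons (80.0 CPM) to the choroid plexus (17.3 CPM), and fibroblasts and microglia overlapped. In SPF PFC, fibroblasts held 336 CPM, above microglia at 79.4 CPM without overlap, and excitatory neurons held 20.7 CPM. DG granule cells held 119, 127 and 122 CPM in SPF mice, above CA1 (53.5, 59.9 and 62.3 CPM) and CA3 (59.7, 61.0 and 72.0 CPM), which overlapped.

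In microglia, the brain's resident macrophages, Fkbp5 was higher in GF mice of both regions. Hip microglia held 921, 846 and 747 CPM in GF, 247, 135 and 216 CPM in SPF, and 148, 168 and 146 CPM in CGF mice, from 1419, 433 and 254 UMIs. The lowest GF mouse stood far above the highest of the other mice, and SPF and CGF overlapped. GF against SPF was a log2 fold change of 2.07 (SE 0.19), or 4.20-fold. In Hip microglia the summed markers of oligodendrocytes (383 to 499 against 776 to 1108 CPM), astrocytes (1634 to 1972 against 2220 to 2979 CPM), endothelial cells (52.0 to 59.1 against 68.6 to 108.6 CPM) and fibroblasts (66.2 to 89.7 against 102.2 to 117.9 CPM) were lower in GF than in SPF mice without overlap, as were the interneuron markers given above, and their part in the Fkbp5 value was not tested.

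PFC microglia held 989, 817 and 745 CPM in GF, 97.1, 37.4 and 128 CPM in SPF, and 98.3, 95.2 and 71.6 CPM in CGF mice, a log2 fold change of GF against SPF of 3.24 (SE 0.26), or 9.46-fold. The GF levels of both regions were thus alike, and SPF and CGF levels were lower in the PFC, where SPF and CGF microglia gave only 60 and 61 UMIs in all. Excitatory neuron markers in these microglia were at 49.7% of the neuronal level in GF and 58.6% in SPF Hip, and at 47.2% and 61.9% in the PFC. Fkbp5 of microglia was 930% of its own excitatory neuron level in GF Hip and 1489% in GF PFC, both from unadjusted CPM. The summed level of the 14 microglial markers was itself higher in GF PFC (7047 to 8641 CPM) than in SPF (3992 to 4632 CPM), with no marker at 0. Its part in the values of Fkbp5 and of any other gene in PFC microglia was not tested.

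Fkbp5 rose in GF oligodendrocytes, OPC and astrocytes of both regions. In Hip astrocytes it was 57.9, 101 and 52.5 CPM in GF, 27.8, 19.8 and 33.0 CPM in SPF, and 15.1, 24.3 and 27.3 CPM in CGF mice. In PFC astrocytes the same groups held 139, 125 and 97.5 CPM, 9.17, 20.9 and 42.0 CPM, and 17.3, 29.6 and 18.5 CPM. GF mice were above SPF and CGF without overlap in both regions, with log2 fold changes against SPF of 1.38 (SE 0.26) in Hip and 2.24 (SE 0.28) in the PFC. Oligodendrocytes gave 1.60 (SE 0.25) and 2.61 (SE 0.37), and OPC 0.86 (SE 0.17) and 1.70 (SE 0.29). Markers of other types moved with group in these cells. In PFC oligodendrocytes the summed interneuron markers were 2529 to 3098 CPM in GF and 1004 to 1551 CPM in SPF mice and the excitatory markers were 1490 to 2029 against 2458 to 2582 CPM, and in PFC OPC the interneuron markers were 4697 to 5376 against 2792 to 3031 CPM. In Hip OPC the cells' own markers were lower in GF mice, at 10390 to 11100 against 13620 to 15090 CPM. So were oligodendrocyte markers (668 to 752 against 759 to 1109 CPM) and astrocyte markers (575 to 670 against 699 to 840 CPM), while ependymal markers were higher (21.9 to 42.7 against 13.3 to 19.6 CPM). In Hip oligodendrocytes, astrocyte markers (370 to 399 against 531 to 644 CPM) and OPC markers (280 to 393 against 397 to 470 CPM) were lower. Hip astrocytes had lower oligodendrocyte markers (321 to 448 against 515 to 787 CPM). Microglial markers were 170 to 204 against 73.7 to 128.6 CPM in PFC OPC and 165 to 194 against 121.4 to 143.5 CPM in PFC astrocytes, where excitatory markers were 1005 to 1072 against 1321 to 1751 CPM and the astrocytes' own markers 6203 to 7336 against 7504 to 8195 CPM. The part of these shifts in any result on oligodendrocytes, OPC and astrocytes was not tested. Endothelial cells were called in the PFC (1.90, SE 0.40), where the value was 3.60 without SPF mouse 32, and not in Hip (1.51, SE 0.49, adjusted p = 0.0841). In PFC endothelial cells the summed markers of mural cells were 1824 to 2235 CPM in GF against 655 to 1064 CPM in SPF mice and those of microglia 229 to 337 against 153 to 189 CPM, and their part in the PFC endothelial values of Fkbp5, Nr3c2, Tsc22d3, Sgk1 and Zbtb16 was not tested.

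Neurons split by region. In Hip excitatory neurons Fkbp5 was 82.9, 83.4 and 77.9 CPM in GF, 73.1, 86.3 and 86.5 CPM in SPF, and 51.2, 76.6 and 89.7 CPM in CGF mice, with full overlap, a log2 fold change of −0.01 and a 95% interval of −0.34 to 0.31. CA3 was the subfield in which GF mice (45.3, 54.5 and 57.5 CPM) lay below SPF mice without overlap, with −0.29 and no call. In PFC excitatory neurons it was 52.3, 61.7 and 60.3 CPM in GF, 17.97, 19.4 and 23.3 CPM in SPF, and 17.3, 21.6 and 17.2 CPM in CGF mice, a log2 fold change of 1.52 (SE 0.13), or 2.87-fold. In these neurons the excitatory markers summed to 4296 to 4601 CPM in GF and 4747 to 4876 CPM in SPF mice, the interneuron markers to 85.8 to 109.7 against 133.5 to 166.6 CPM and the microglial markers to 76.2 to 87.3 against 67.6 to 73.6 CPM. Their part in the values of Fkbp5, Nr3c2 and other genes in PFC excitatory neurons was not tested. Every GF mouse lay above every SPF mouse in each PFC layer gated (upper layer, Rorb layer, layer 5, layer 6 and near-projecting neurons) and in Pvalb and Sst interneurons, whereas Vip interneurons overlapped (68.6, 46.2 and 54.8 CPM in GF, 53.3, 44.5 and 56.7 CPM in SPF).

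**Figure D2:**
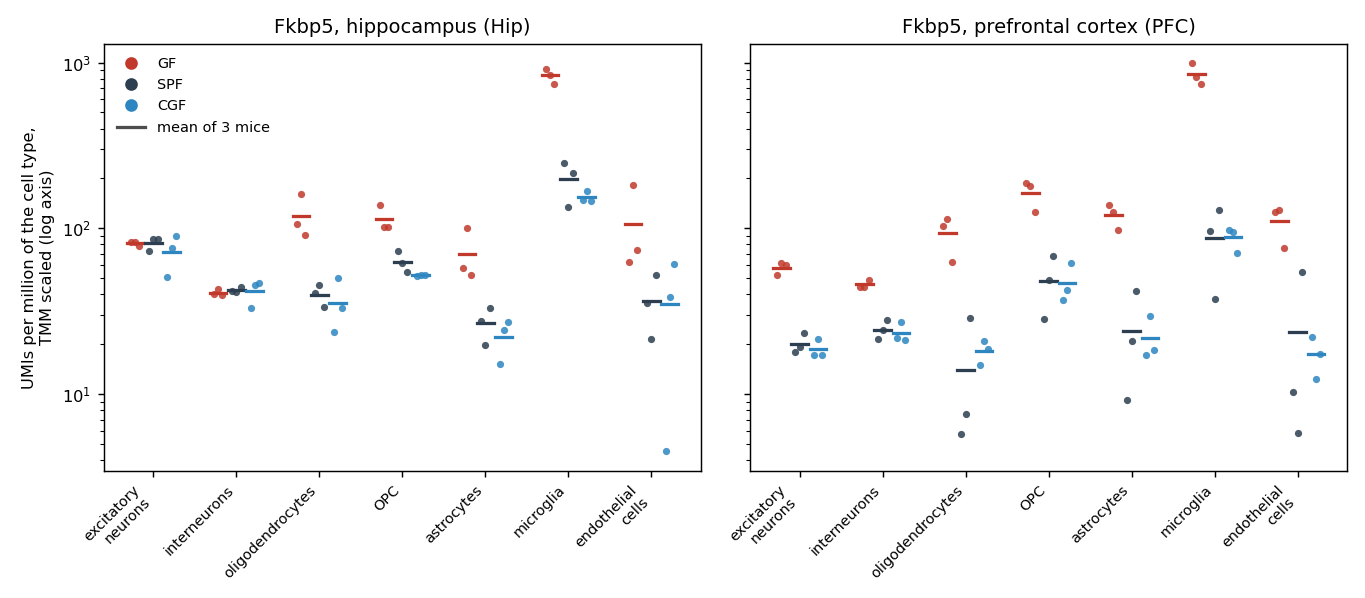
Fkbp5 level in 7 cell types of Hip (left) and PFC (right), in CPM on a log axis, with a point for each mouse and a line for the mean of 3 mice. GF microglia sit between 745 and 989 CPM in both regions and above all SPF and CGF microglia, and Hip excitatory neurons and interneurons are the types in which the 3 groups overlap.

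Fibroblasts were not among the types tested, though each library held at least 21 of their nuclei in Hip and 40 in the PFC. Border macrophages were too few for a test, with 1 nucleus in the smallest Hip library and 2 in the smallest PFC library. Fkbp5 of PFC fibroblasts was 884, 884 and 987 CPM in GF mice, 410, 271 and 327 CPM in SPF and 230, 463 and 438 CPM in CGF mice. PFC border macrophages held 796, 969 and 762 CPM in GF mice from 181 UMIs, and the SPF mice gave 1 UMI in all. In both types the GF mice lay above the SPF mice without overlap, with no test behind it.

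Tsc22d3, known as Gilz, encodes a leucine zipper protein through which glucocorticoids dampen inflammatory signalling. SPF Hip oligodendrocytes held 133 CPM, without overlap above endothelial cells at 74.7 CPM, border macrophages at 69.7 CPM and astrocytes at 65.3 CPM, and excitatory neurons held 4.74 CPM. In SPF PFC, fibroblasts led at 73.0 CPM, above oligodendrocytes at 52.9 CPM without overlap. In PFC astrocytes it was 81.8, 108 and 90.3 CPM in GF, 25.7, 30.6 and 32.2 CPM in SPF and 7.55, 16.3 and 14.3 CPM in CGF mice. All 3 groups stood apart, GF highest and CGF lowest. GF against SPF gave 1.65 (SE 0.22), and CGF against SPF −1.27 (SE 0.33) with an adjusted p of 0.143.

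Tsc22d3 also rose in other PFC types, with 1.46 (SE 0.21) in oligodendrocytes, 1.56 (SE 0.51) in microglia and 1.89 (SE 0.30) in endothelial cells. The microglial call ended without SPF mouse 32 (1.13, adjusted p = 0.145). In Hip the values were 0.46 (SE 0.15) in oligodendrocytes and 0.75 (SE 0.21) in astrocytes. The oligodendrocyte call ended without GF mouse 5 or 6 or SPF mouse 31 or 32 (0.34 to 0.48, adjusted p 0.0577 to 0.133), with DESeq2 and in thinned libraries, and that of astrocytes without GF mouse 5 (0.59, adjusted p = 0.0706). CA1 gave 0.70 (SE 0.23), ended without GF mouse 6 or 7 or SPF mouse 30 or 31 (0.48 to 0.73, adjusted p 0.061 to 0.102) and under a stricter gate.

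Sgk1, a kinase induced by both receptors and known for regulating ion channels and myelinating cells, moved in opposite directions in oligodendrocytes and excitatory neurons of Hip, while Hip interneurons gave −0.33 (adjusted p = 0.105). Oligodendrocytes held 237, 283 and 220 CPM in GF, 81.5, 59.5 and 105 CPM in SPF and 52.5, 66.1 and 82.2 CPM in CGF mice, a log2 fold change of GF against SPF of 1.57 (SE 0.19), or 2.97-fold. Excitatory neurons held 83.3, 72.9 and 77.0 CPM in GF, 112, 133 and 120 CPM in SPF and 131, 104 and 105 CPM in CGF mice, a log2 fold change of −0.65 (SE 0.10). GF mice stood above SPF and CGF in the first type and below both in the second, without overlap. DG granule cells (−0.84), CA1 (−0.65) and CA3 (−0.62) were called too, and with the length and GC trend removed excitatory neurons kept their call at −0.37 and CA3 lost it at −0.34 (adjusted p = 0.13).

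In the PFC, Sgk1 rose in GF oligodendrocytes (1.32, SE 0.19), OPC (0.89, SE 0.19) and endothelial cells (0.76, SE 0.24), and excitatory neurons gave 0.20 (adjusted p = 0.0924). PFC OPC held 307, 275 and 286 CPM in GF mice and 170, 146 and 152 CPM in SPF mice, and Hip OPC held 231, 207 and 226 CPM against 235, 251 and 239 CPM. GF and SPF thus stood far apart in OPC of the PFC and close together in those of Hip. The endothelial call ended without SPF mouse 30 or 31 (0.66 and 0.64, adjusted p = 0.0678 and 0.0762), with DESeq2 and in thinned libraries. Among hippocampal neurons of SPF mice, Sgk1 was highest in CA3 (183, 259 and 219 CPM) and lowest in DG granule cells (53.9, 58.9 and 68.1 CPM), with CA1 between them and no overlap.

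Zbtb16, a zinc finger transcription factor and well-known glucocorticoid target, rose in GF oligodendrocytes, OPC, astrocytes and endothelial cells of both regions. Hip microglia were not called (0.57, SE 0.21, adjusted p = 0.082), and in PFC microglia the gene was lower. Hip oligodendrocytes held 353, 435 and 276 CPM in GF, 82.5, 69.1 and 87.6 CPM in SPF and 52.5, 153 and 81.5 CPM in CGF mice, a log2 fold change of GF against SPF of 2.15 (SE 0.28), or 4.43-fold. GF mice lay above the others without overlap, and CGF mouse 18 was the highest of the CGF mice. OPC (1.70), astrocytes (1.71) and endothelial cells (2.08) were called in Hip, and oligodendrocytes (1.08), OPC (1.86), astrocytes (1.49) and endothelial cells (1.03) in the PFC. The endothelial calls rested on single mice and ended without GF mouse 6 (1.62, adjusted p = 0.0554, in Hip and 0.55, adjusted p = 0.182, in the PFC), without SPF mouse 30 in either region (2.00 and 1.01, adjusted p = 0.0745 and 0.0546) and without SPF mouse 31 in the PFC (0.87, adjusted p = 0.0771).

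The same gene was lower in GF mice in 2 types of the PFC. Microglia there held 73.2, 98.4 and 75.8 CPM in GF and 263, 122 and 180 CPM in SPF mice, a log2 fold change of −1.17 (SE 0.27), and those of Hip gave 0.57 (adjusted p = 0.082). Excitatory neuron markers in PFC microglia were lower in GF mice too (1818 to 2383 against 2584 to 3372 CPM), and their part in this was not tested. The PFC value was −0.76 with the length and GC trend removed and kept its call. Interneurons gave −0.56 (SE 0.11), which lost its call under that alternative (−0.24, adjusted p = 0.0605). Interneuron markers in PFC interneurons summed to 10280 to 10910 CPM in GF and 6771 to 6986 CPM in SPF mice and microglial markers to 95.7 to 107.6 against 68.1 to 73.5 CPM, and their part in the interneuron values of Zbtb16 and Fkbp5 was not tested. Vip interneurons held 539, 544 and 536 CPM in GF against 1140, 979 and 1033 CPM in SPF mice, and Pvalb interneurons overlapped. Hip excitatory neurons (−0.08) and interneurons (0.08) overlapped between GF and SPF and were not called.

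Pdk4 encodes a kinase that turns off pyruvate dehydrogenase and so spares glucose. In SPF Hip it stood at 20.7 CPM in astrocytes, 19.3 CPM in the choroid plexus and 16.5 CPM in oligodendrocytes, which overlapped, while endothelial cells stood at 5.73 CPM and excitatory neurons at 0.388 CPM. Hip oligodendrocytes held 57.9, 48.8 and 50.0 CPM in GF, 21.8, 10.9 and 16.6 CPM in SPF and 10.1, 7.77 and 7.83 CPM in CGF mice, a log2 fold change of GF against SPF of 1.64 (SE 0.21), or 3.12-fold. All 3 groups stood apart, with CGF lowest, and CGF against SPF gave −0.96 (SE 0.27) at an adjusted p of 0.354. PFC oligodendrocytes did not pass the filter, with 120, 12 and 2 UMIs in GF, SPF and CGF mice. Astrocytes did not separate the groups, with log2 fold changes of 0.04 in Hip and 0.32 in the PFC.

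**Figure D3:**
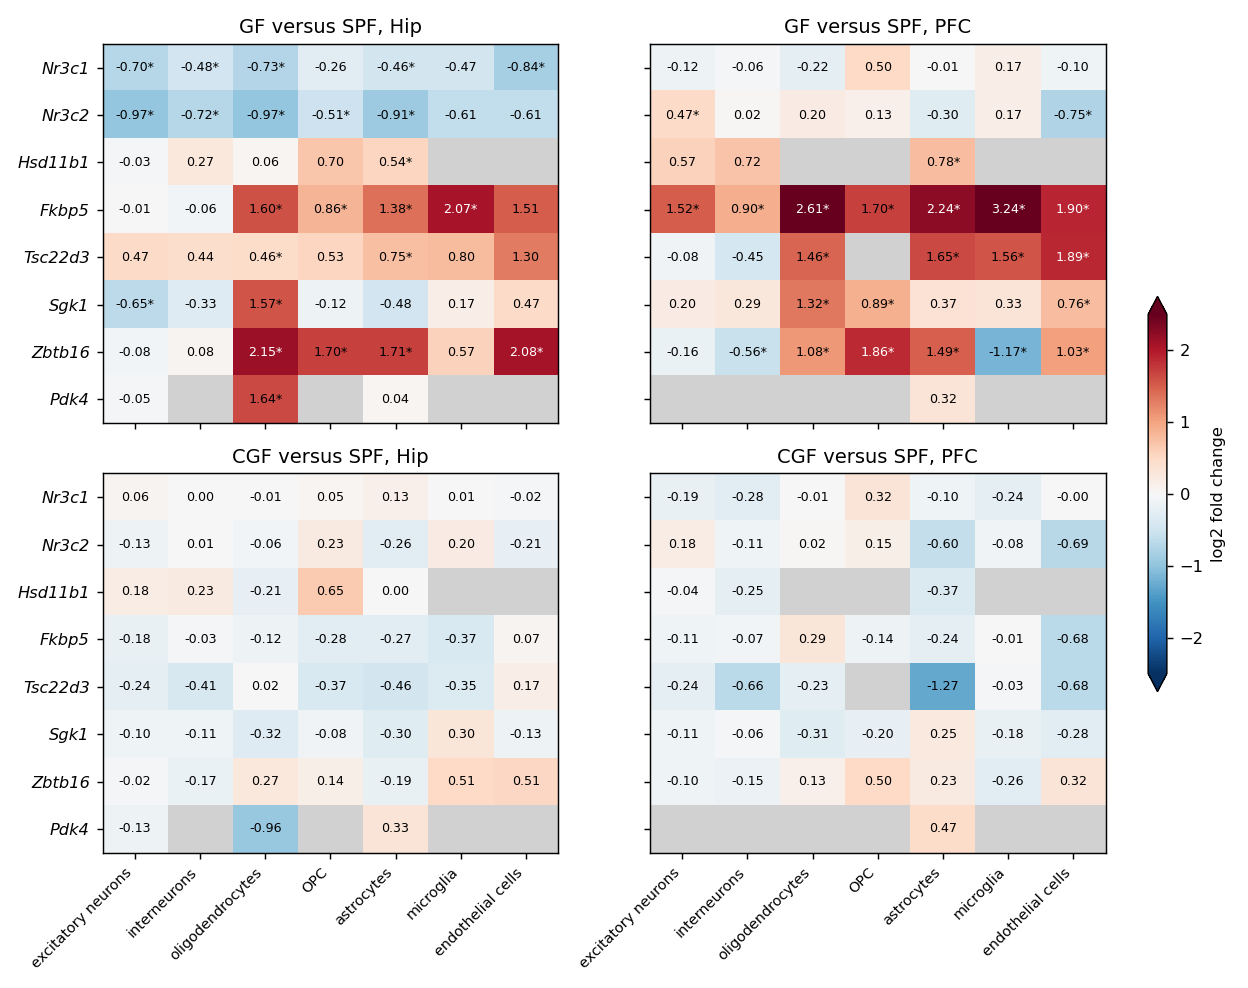
Log2 fold changes of the 8 genes in 7 cell types, for GF against SPF (top) and CGF against SPF (bottom) in Hip (left) and PFC (right), with an asterisk where the adjusted p was under 0.05 and grey where a gene was not tested. The top panels hold asterisks in 24 cells of Hip and 23 of the PFC, and the bottom panels hold none.

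Over the 8 genes, GF against SPF was called in 24 of 50 pairs in Hip, 13 higher and 11 lower, beside 30.1% of all genes and types tested (17.1% higher and 12.9% lower). In the PFC it was called in 23 of 45 pairs, 20 higher and 3 lower, beside 48.1% (24.7% higher and 23.5% lower), and in the 3 subfields in 10 of 21 pairs, 1 higher and 9 lower, beside 44.5%. The background differed between types. In Hip it was 46.5% in excitatory neurons, 38.5% in interneurons, 28.8% in oligodendrocytes, 21.4% in OPC, 32.1% in astrocytes, 14.4% in microglia and 6.34% in endothelial cells, and in the PFC it was 63.1%, 54.7%, 37.5%, 35.6%, 46.9%, 37.7% and 34.9% in the same order. GF and SPF mice did not overlap in 30 of 50 Hip pairs, beside 44.5% of all, and in 27 of 45 PFC pairs, beside 57.9%. Since these genes were chosen with this contrast known, nothing is read from the counts.

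No pair was called between CGF and SPF mice by edgeR, with 0 of 50 in Hip, beside 0.241% of all genes and types, and 0 of 45 in the PFC, beside 0.17%. DESeq2 also called 0 in either region, and edgeR without the filter on low counts called 2 in the PFC. An unadjusted p under 0.05 was reached by 3 pairs in Hip and 4 in the PFC. The groups did not overlap in 3 Hip pairs, beside 15.4% of all, and in 4 PFC pairs, beside 13.5%. The smallest intervals bound what could be missed, such as −0.09 to 0.22 on the log2 scale for Nr3c1 in Hip excitatory neurons, while those of microglial Fkbp5 ran from −0.77 to 0.02 in Hip and from −0.66 to 0.65 in the PFC. GF against CGF, which shares the GF mice with the first contrast, was called in 27 of 50 Hip pairs, 16 higher and 11 lower in GF, beside 32.2%, and in 23 of 45 PFC pairs, 21 higher and 2 lower, beside 47.8%. The genes were chosen with differences between germ-free and colonised mice known, so nothing is read from these counts either.

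Whether the difference between GF and SPF itself differed between the regions was described by an interaction term, called in 15 of 49 pairs beside 28.9% of all genes and types. The term is built from the differences with which the genes were chosen, so it too is a description and supports nothing about the set. It was lower in Hip than in the PFC in 13 of these pairs. Fkbp5 in excitatory neurons gave −1.59 (SE 0.21) for Hip less PFC, and Nr3c2 in excitatory neurons −1.50 (SE 0.22), being 1.96-fold lower in GF Hip and 1.38-fold higher in GF PFC. With the length and GC trend removed the Nr3c2 value was −0.96 and still called. For Nr3c1 in excitatory neurons the value was −0.64 (SE 0.13), and it came to −0.06 (adjusted p = 0.71) with the length and GC trend removed. Fkbp5 in microglia gave −1.17 (SE 0.34), which ended without GF mouse 7 (adjusted p = 0.0502) or SPF mouse 30 (−0.97, adjusted p = 0.131). The PFC was also where the depth of GF libraries stood furthest from that of SPF libraries, and its part in the interaction was not tested beyond thinning, which left Fkbp5 and Nr3c2 of excitatory neurons called and ended the call of microglial Fkbp5 (−1.07, adjusted p = 0.0554).

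**Figure D4:**
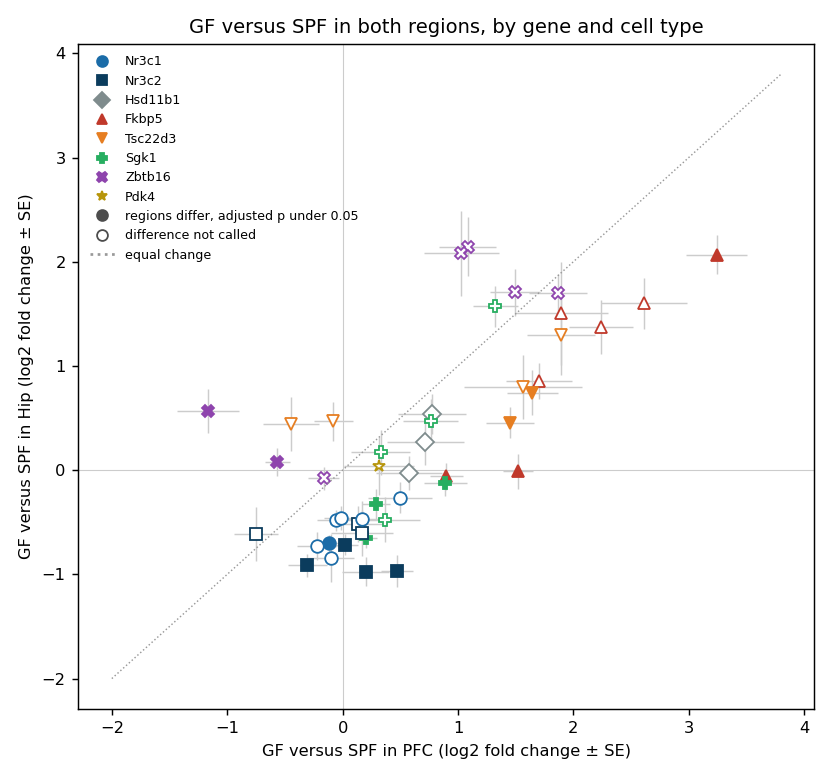
Log2 fold change of GF against SPF in the PFC (horizontal) and in Hip (vertical), with bars of 1 SE, for the 45 pairs of a gene and a cell type tested in both regions; filled symbols mark the 15 pairs whose regions differed at an adjusted p under 0.05, and the dotted line marks equal change. Nr3c2 of excitatory neurons lies below 0 in Hip (−0.97) and above 0 in the PFC (0.47), and Fkbp5 of excitatory neurons lies at −0.01 in Hip and 1.52 in the PFC.

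Compared directly, Hip and PFC differed in 11 of 49 pairs in GF mice (8 higher in Hip, beside 11.6% of all genes and types), in 25 in SPF mice (21 higher, beside 44.1%) and in 25 in CGF mice (23 higher, beside 45.6%). Fkbp5 of excitatory neurons was 4.46-fold higher in Hip of SPF mice and 4.22-fold higher in CGF mice, and 1.48-fold higher in GF mice (log2 fold changes 2.16, 2.08 and 0.57, adjusted p = 2.22e-09, 3.42e-09 and 0.00615), the last of which ended without GF mouse 5 (0.50, adjusted p = 0.0666). Sgk1 of excitatory neurons was higher in Hip of SPF (0.79) and CGF mice (0.80), and in GF mice the value was −0.11 (adjusted p = 0.452). Zbtb16 of interneurons was lower in Hip of SPF (−0.83) and CGF mice (−0.86), with −0.19 in GF mice (adjusted p = 0.542). Without scaling factors the values of a cell type in these contrasts shifted by −0.27 to 0.14 on the log2 scale, and Nr3c1 of CGF excitatory neurons (0.27) came to −0.00053. With the length and GC trend removed this last value was called in the opposite direction (−0.22, adjusted p = 0.0172).

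Other genes of the pathway were counted from fixed lists, with the share of all genes and types called being 30.1% in Hip and 48.1% in the PFC. Chaperones of the receptor complex, which fold the receptor with Hsp90, were called higher in 42 of 83 Hip pairs and lower in none, with a median log2 fold change of 0.60 against 0.0083 over all genes, and in the PFC 19 were higher and 21 lower of 78 (median 0.04). Dnajb1, a co-chaperone of Hsp70, rose in Hip interneurons (1.76, SE 0.29), Ahsa1, an activator of Hsp90, was 4.29-fold higher in PFC endothelial cells (SE 0.45 on the log2 scale), and Hsp90ab1, an Hsp90 itself, fell in PFC excitatory neurons (−1.81, SE 0.12). Other glucocorticoid-responsive genes were called higher in 43 and lower in 5 of 126 Hip pairs (median 0.34), and higher in 33 and lower in 23 of 104 PFC pairs (median 0.12). Among these, Mertk, a phagocytic receptor, rose in PFC OPC (2.56, SE 0.23) and Glul, the glutamine synthetase typical of astrocytes, fell in PFC excitatory neurons (−2.65, SE 0.25). In PFC excitatory neurons the 10 astrocyte markers summed to 158 to 172 CPM in GF and 305 to 344 CPM in SPF mice. Their part in the Glul value and in the other values of PFC excitatory neurons was not tested. Plin4, a lipid droplet protein, rose in the same neurons (3.32, SE 0.60) at levels of 98 UMIs in GF and 4 in SPF mice. Its levels were 0.615 to 0.835 CPM in GF, at most 0.186 CPM in SPF and at most 0.208 CPM in CGF mice. It passed the filter on low counts only through the GF mice, so this value supports nothing.

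Coregulators of nuclear receptors were called higher in 1 and lower in 13 of 77 Hip pairs, and higher in 11 and lower in 22 of 77 in the PFC. Nrip1, a corepressor, rose in PFC microglia (1.41, SE 0.23), where Smarca4, a chromatin remodelling ATPase, fell (−1.25, SE 0.20). Other steroid receptors were called lower in 5 and higher in none of 18 Hip pairs (median −0.55), with the progesterone receptor Pgr at −0.97 (SE 0.33) in oligodendrocytes and the oestrogen receptor Esr1 at −0.62 (SE 0.18) in excitatory neurons. In the PFC this list was called higher in 1 and lower in 0 of 12 pairs (median −0.10). Genes of steroid metabolism and transport were called in 5 of 22 Hip pairs (1 higher) and 5 of 15 PFC pairs (2 higher), among them Srd5a1, a steroid reductase, which rose in PFC excitatory neurons (1.94, SE 0.19), Akr1c14, a hydroxysteroid dehydrogenase, which fell there (−1.32, SE 0.50), and Cyp7b1, an oxysterol hydroxylase, which fell in PFC microglia (−1.18, SE 0.47), the levels of the last 2 overlapping between GF and SPF mice.

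Of the corticotropin-releasing hormone system, 2 of 11 Hip pairs were called, both higher, and 4 of 9 PFC pairs, all lower. Crh, the hormone that starts the stress axis, was 6.34, 1.76 and 6.51 CPM in GF Hip interneurons and 1.72, 0.864 and 1.63 CPM in SPF (log2 fold change 1.73, SE 0.51), so GF mouse 6 stood beside the SPF mice, and its binding protein Crhbp rose in the same type (0.85, SE 0.19). The receptor Crhr1 fell in PFC oligodendrocytes (−1.27, SE 0.49), with levels that overlapped. Close relatives of the 8 genes were called higher in 10 and lower in 7 of 51 Hip pairs and higher in 19 and lower in 4 of 44 PFC pairs (median 0.36), with Tsc22d2 at 1.71 (SE 0.27) in PFC microglia, Sgk3 at 1.53 (SE 0.29) in PFC oligodendrocytes and Pdk1 at 1.24 (SE 0.31) in PFC astrocytes. CGF against SPF called 0 pairs of any of the 7 lists in either region, beside 0.241% of all genes and types in Hip and 0.17% in the PFC. Among the genes named from the lists, in the type and region given for each, CGF mice lay above SPF mice without overlap for Mertk, Srd5a1 and Pdk1. For Crh they lay below, and for the other genes named the 2 groups overlapped. The lists were drawn up with earlier results of these libraries known and describe only their own members.

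Across 22 points, each the mean profile of 1 cell type in 1 region and 1 of them the Hip ependymal gate, the genes most like Fkbp5 among 14756 genes were Pik3ap1 (r = 0.893), Gm26740 (r = 0.883) and Rab3il1 (r = 0.878). Those most like Nr3c1 were Sf3b5 (r = 0.914), Ppia (r = 0.899) and Rps23 (r = 0.894), and those most like Nr3c2 were Ahcyl2 (r = 0.856), Dcn (r = 0.855) and Rchy1 (r = 0.833). Among the 8 genes themselves Nr3c1 and Tsc22d3 were the most alike (r = 0.785), followed by Hsd11b1 and Pdk4 (r = 0.657), while Fkbp5 and Nr3c1 gave r = 0.369. These are Pearson correlations of log2(CPM + 1) over points that share libraries and depth, given as a description.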

How the data were processed

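Nuclei of snap-frozen Hip and PFC were isolated on a sucrose gradient and sequenced with a 10x 3′ kit. The deposited files hold the authors' raw UMI counts per gene and nucleus, made with Cell Ranger 3.1.0 on mm10, 139924 barcodes in 18 matrices; whether introns were counted is not given in the sources used here. As in the study, a nucleus needed at least 200 genes and at most 10% of UMIs from mitochondria. No annotation of cell types was used here, so each nucleus was gated on marker genes. Non-neuronal types needed at least 3 marker UMIs. Neurons needed at least 5 UMIs of the 2 neuronal marker lists together and no non-neuronal gate. Nuclei passing 2 non-neuronal gates, the second score over 0.5 of the first, were dropped as possible doublets, with no doublet caller run. Counts were summed per mouse and type, and those used for tests came from 7 types and 3 subfields with at least 20 nuclei in each library. They were tested with edgeR 4.0.16 (filterByExpr, TMM, quasi-likelihood test, Benjamini-Hochberg over all genes, R 4.3.3), within a region for groups and over both regions for region contrasts. SE is the size of the log2 fold change divided by the root of F, and intervals are 1.96 SE to either side. With so few mice they are narrower than 95% intervals of the test. For Sgk1 in PFC excitatory neurons, GF against SPF, the interval was 0.009 to 0.40, with an unadjusted p of 0.0631 in the quasi-likelihood test. Alternatives were library size alone, no filter, a stricter gate, thinned UMIs, removal of the trend on gene length and GC, DESeq2 1.42.0, only the groups compared, each mouse left out and the mouse as a block. The fits were tested on simulated counts.

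The 8 genes and the lists were chosen with earlier results of these data known. Named from each list were the 3 members with the largest absolute log2 fold change among those called between GF and SPF, of which 2 are not reported here, and for likeness the 3 genes of highest Pearson r over type and region. Sample titles share a mouse number between regions, so the numbers pair the libraries of 1 animal. Deviations of paired libraries correlated at 0.0682 to 0.459 in excitatory neurons, where 8 of 9 pairs were over 0.1. Correlations were lower in the other 6 types (−0.21 to 0.37, with 7 of 9 over 0.1 in oligodendrocytes, 6 in astrocytes, 5 in interneurons and in OPC, and 2 in microglia and in endothelial cells). Libraries of different mice of a group reached 0.119 in excitatory neurons, 0.221 in interneurons, 0.317 in oligodendrocytes, 0.0495 in OPC, 0.187 in astrocytes, 0.349 in microglia and 0.0848 in endothelial cells. The highest paired values were 0.337 in oligodendrocytes and 0.37 in microglia, so these types hardly showed the pairing. Mice are separate animals. Depth was 20336250 to 71463928 UMIs per library. Files were read with Python 3.11.15, numpy 2.4.6, scipy 1.17.1 and pandas 2.3.3, and drawn with matplotlib 3.10.9.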

Additional observations from a re-analysis of the deposited data

Results flagged for a closer look

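The difference between GF and SPF mice differed between Hip and PFC, by an interaction term in edgeR's quasi-likelihood test with Benjamini-Hochberg adjustment, in 15 of 49 pairs tested, beside 28.9% of all genes and types. These genes were chosen with the differences that make up this term known, so the values are a description and support nothing about the set. All are log2 fold changes in Hip less those in the PFC. In excitatory neurons they were −1.588 for Fkbp5, −1.497 for Nr3c2, −0.9049 for Sgk1 and −0.6389 for Nr3c1. In interneurons they were −0.9689 for Fkbp5, −0.7463 for Nr3c2, −0.6231 for Sgk1 and 0.6322 for Zbtb16. In microglia they were 1.73 for Zbtb16 and −1.174 for Fkbp5. In oligodendrocytes and OPC they were −1.189 for Nr3c2, −1.013 for Tsc22d3 and −0.9667 for Sgk1 in OPC. In astrocytes they were −0.6482 for Nr3c2 and −0.9399 for Tsc22d3.

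Of these, Fkbp5 in microglia lost its call without GF mouse 7 or SPF mouse 30 (−1.17 and −0.97, adjusted p = 0.0502 and 0.131), in thinned libraries (−1.07, adjusted p = 0.0554) and under a stricter gate (−0.73, adjusted p = 0.222), Nr3c2 in astrocytes lost its call without CGF mouse 18, GF mouse 6 or 7 or SPF mouse 30 or 31 (−0.64 to −0.50, adjusted p 0.0512 to 0.144), Sgk1 in interneurons without GF mouse 6 or SPF mouse 31 (−0.47 and −0.56, adjusted p = 0.106 and 0.0669), Tsc22d3 in astrocytes without GF mouse 6 or 7 or any SPF mouse (−1.10 to −0.77, adjusted p 0.0522 to 0.15) and Zbtb16 in interneurons without SPF mouse 32 (0.49, adjusted p = 0.0534). With the length and GC trend removed, calls ended for Nr3c2 in astrocytes (−0.36, adjusted p = 0.238) and interneurons (−0.29, adjusted p = 0.127), Sgk1 in interneurons (−0.31, adjusted p = 0.25), Tsc22d3 in astrocytes (−0.70, adjusted p = 0.14) and Nr3c1 in excitatory neurons (−0.06, adjusted p = 0.71). Sgk1 in interneurons also lost its call without scaling factors (−0.43, adjusted p = 0.0634) and Tsc22d3 in astrocytes with DESeq2 (−0.88, adjusted p = 0.0747).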

How the results depend on the processing

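Of the pairs called, 16 of 24 in Hip and 17 of 23 in the PFC for GF against SPF, 8 of 10 in the subfields, 13 of 27 in Hip and 17 of 23 in the PFC for GF against CGF, 8 of 15 for the difference between regions, and 6 of 11, 18 of 25 and 18 of 25 for Hip against PFC in GF, SPF and CGF mice kept their call under every alternative run. Of the pairs not called between GF and SPF, 10 in Hip and 7 in the PFC were called under at least 1 alternative. Leaving out mice singly, the calls of GF against SPF ranged from 21 to 25 in Hip and from 21 to 26 in the PFC, those of GF against CGF from 22 to 29 and from 20 to 25, those of the subfields from 9 to 11, those of the difference between regions from 12 to 18, and those of Hip against PFC from 8 to 11 for GF, 19 to 27 for SPF, and 20 to 27 for CGF mice, while CGF against SPF stayed at 0. Without the filter on low counts, calls rose to 2 for CGF against SPF in the PFC and to 23 for the difference between regions, and the cause was not tested. With the mouse as a replicate block, calls of the difference between regions came to 18, and those of Hip against PFC to 12, 28 and 28 in GF, SPF and CGF mice, and no call of the unblocked fit ended. The block together with removal of the length and GC trend gave 18 calls for Hip against PFC in GF mice. Nr3c1 reversed for Hip against PFC in excitatory neurons of CGF mice, to −0.00053 without scaling factors, −0.22374 with the length and GC trend removed (adjusted p = 0.0172) and −0.2238 with the block as well (adjusted p = 0.0284), both called in the opposite direction, and in astrocytes of SPF mice, to −0.02127 and −0.020442 under the last 2 of these. Dividing by library size alone moved the median over these genes by up to 0.154 in a type for GF against SPF in Hip, by 0.172 in the subfields and by 0.353 for the difference between regions. Low counts limited PFC microglia of SPF and CGF mice, where Fkbp5 rested on 60 and 61 UMIs, and other PFC types too. In SPF mice Fkbp5 was at 13.3 CPM in PFC oligodendrocytes, where Sgk3 at 42.5 CPM held 50 UMIs. It was at 21.4 CPM in PFC endothelial cells, where Ahsa1 at 16.7 CPM held 10 UMIs. Tsc22d3 of SPF PFC microglia was at 14.9 CPM, below Fkbp5 there at 79.4 CPM.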
